A study of Rattus norvegicus with 9 samples.

Results

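The histone genes of sorted retinal microglia were described in diabetic and control rats. They were taken as every row of the authors' table of counts per gene whose symbol starts with Hist1h, Hist2h, Hist3h, H1f, H2af or H3f, which gave 44 of 28343 genes. By these names 5 were replication-dependent linker histones (Hist1h1), 3 were replacement linker histones (H1f), 28 were replication-dependent core histones and 8 were replacement core histones (H2af and H3f). The family came into view because Hist1h1c had the smallest p-value of all 11748 genes tested between the groups. The family was thus chosen by the difference of Hist1h1c between the groups, and that difference and its rank are given as a description and support nothing further.

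The animals were Dark Agouti rats, an inbred strain. Diabetic rats (n = 4, libraries 1, 2, 4 and 5) had been injected at 8 to 10 weeks of age with 55 mg/kg streptozotocin, a toxin of the insulin-producing beta cells. They were given 2 units of long-acting insulin whenever blood glucose exceeded 30 mmol/l, and the labels do not say which rats received it. Control rats (n = 5, libraries 1, 3, 4, 5 and 6) had received citrate buffer and had normal blood glucose. All animals had fasted for 12 hours before the injection, and 4 weeks after it the retinas were dissociated with papain and cells stained for CD11b, an integrin of microglia and of other myeloid cells, were sorted. The labels do not say whether a library is 1 animal or a pool, so the p-values measure the spread between these libraries.

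Total counts were 9156591 to 11332823 per control library and 6228756 to 9629829 per diabetic library. Microglial identity genes summed to 43814 to 49173 CPM (counts scaled to a common library size) in controls and 42184 to 47039 in diabetic libraries, and 16 of the 17 in the table had counts, Siglech being at 0 throughout. A list of genes induced by tissue dissociation and sorting summed to 31547 CPM in control 4 and 42979.7 in control 6, against 5189.7 to 11231 in the other 3 controls and 14522 to 23957 in the diabetic libraries. Histone genes together held 0.103% to 0.159% of the counts in controls and 0.143% to 0.181% in diabetic libraries.

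Histones package DNA. A nucleosome is built of the core histones H2A, H2B, H3 and H4, and a linker histone of the H1 family binds where DNA enters and leaves it and helps fold the fibre. Most replication-dependent histone genes are clustered, lack introns, are expressed with DNA synthesis, and give mRNA that ends in a stem-loop in place of a poly(A) tail. Replacement histones come from genes outside the clusters whose mRNA is polyadenylated, and they are deposited throughout the cell cycle, which makes them the main newly supplied histones of cells that divide rarely, such as microglia. Hist1h1c encodes H1.2, a linker histone that many non-dividing cells also express and whose mRNA can be polyadenylated. The SMART-Seq preamplification used here starts from poly(A), so a low count of a stem-loop histone gene is no measure of how much of its mRNA the cells held.

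In the Rnor6 annotation carried by the deposited transcript assemblies, 36 of the 44 symbols had a reference transcript, at 46 loci in all. Of these loci 32 lay on chromosome 17, and 31 formed a cluster between positions 43422454 and 44841382, a span of 1.42 Mb. Both abundant linker genes lie in it. Hist1h1c (ENSRNOG00000054978) is at chr17:43639749-43640387 on the minus strand, a single reference span of 639 bases. Hist1h1d (ENSRNOG00000047459) is at chr17:43734461-43735120 on the plus strand and spans 660 bases. Hist1h2bg is annotated at chr17:43679925-43689311, Hist3h2ba at chr10:45289741-45290370, H1fx at chr4:119889371-119889949 and H2afx at chr8:48665652-48666981. The symbol Hist1h4b covers 6 gene identifiers on chromosomes 2, 4 and 17, and Hist1h2ac, Hist1h2ail1, Hist2h2aa2 and Hist3h3 cover 2 or 3 each, so a count under such a symbol can come from several near-identical copies.

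Promoters are shown for the RefSeq genes that list Hist1h1c or Hist1h1d, the linker genes with nearly all linker counts, as a synonym. A tested core gene, Hist3h2ba, and the main replacement gene are shown for contrast. Each is the 150 bases before the RefSeq start on build GRCr8, read 5′ to 3′ on the gene's strand. Capitals mark AAACACA, the H1 box of linker histone promoters, CCAAT, the binding site of the factor NF-Y, TATAAA, the TATA box, and ATTTGCAT, the octamer bound by Oct-1, each searched on both strands. RefSeq matched 40 of the 44 symbols, and names in RefSeq differ from those of the count table. Hist1h1c is a synonym of H1f2 and of H1f4, and Hist1h1d is a synonym of H1f4 and of H4f3. H1f2 is on the minus strand, as is the Rnor6 locus of Hist1h1c, and H1f4 is on the plus strand, as is that of Hist1h1d. By strand, Hist1h1c thus goes with H1f2 and Hist1h1d with H1f4. H4f3, on the minus strand, is opposite to the Hist1h1d locus and is shown for its synonym alone. Names in brackets below are synonyms. For Hist1h2bg the RefSeq gene of that name is on the plus strand and the Rnor6 locus on the minus strand, so its promoter is not shown.
H1f2 (Hist1h1c), chr17:41820454-41820603, minus: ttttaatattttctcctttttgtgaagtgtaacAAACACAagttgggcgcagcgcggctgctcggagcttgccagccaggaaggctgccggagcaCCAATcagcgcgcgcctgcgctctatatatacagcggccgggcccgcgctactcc
H1f4 (Hist1h1c or Hist1h1d), chr17:41914275-41914424, plus: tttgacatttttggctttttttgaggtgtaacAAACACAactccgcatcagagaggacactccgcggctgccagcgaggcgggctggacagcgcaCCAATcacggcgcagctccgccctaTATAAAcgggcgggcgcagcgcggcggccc
H4f3 (Hist1h1d), chr17:41980342-41980491, minus: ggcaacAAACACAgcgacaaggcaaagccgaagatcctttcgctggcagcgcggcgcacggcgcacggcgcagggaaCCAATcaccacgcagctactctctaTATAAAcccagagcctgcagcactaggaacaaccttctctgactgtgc
Hist3h2ba, chr10:44225271-44225420, plus: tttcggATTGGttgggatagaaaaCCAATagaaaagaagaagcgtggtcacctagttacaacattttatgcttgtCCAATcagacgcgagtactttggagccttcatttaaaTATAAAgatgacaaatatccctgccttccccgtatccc
H3f3b, chr10:101757637-101757786, minus: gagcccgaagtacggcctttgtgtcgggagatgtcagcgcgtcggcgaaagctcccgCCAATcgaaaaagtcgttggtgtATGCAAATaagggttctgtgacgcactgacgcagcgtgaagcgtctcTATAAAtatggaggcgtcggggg

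In these windows the H1 box and the CCAAT box of the linker genes stood in a fixed order. In H1f2 the H1 box began 117 bases before the start and the CCAAT box 55 bases before it, 62 bases apart, and in H1f4 they began at 118 and 55, 63 bases apart. In H4f3 they began at 144 and 73, 71 bases apart. H1f4 and H4f3 also held TATAAA, 30 and 48 bases before the start, and H1f2 did not hold these letters. Only this exact string was searched. The H1f2 window holds tatatata, so the lack of TATAAA does not show that it lacks a TATA box. Among 41 distinct histone promoters, the H1 box was present in 5 of 6 of replication-dependent linker genes (all but H1f1), in 2 of 24 of replication-dependent core genes, in 1 of 3 of replacement linker genes and in 0 of 8 of replacement core genes, against 3.27% of all 27457 promoters in the same window. CCAAT was in 6 of 6, 21 of 24, 1 of 3 and 6 of 8 of these classes, against 23.7% of all promoters. TATAAA was in 4, 9, 0 and 2 of them, against 8.16%. The octamer was in 8 of the replication-dependent core promoters, in 1 replacement core promoter (H3f3b) and in 0 of the linker promoters, against 0.841%. No matches of different motifs overlapped in the histone promoters. A match is a string of letters and not a bound site.

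Of the 44 histone genes, 34 had at least 1 count and 11 passed the filter on low counts. The 11 were Hist1h1c and Hist1h1d among linker histones, Hist1h2bg, Hist1h4b and Hist3h2ba among replication-dependent core histones, and the replacement core histones H2afv, H2afx, H2afy, H2afy2, H2afz and H3f3b. The filter kept genes with enough counts in the smaller group, so these 11 do not stand for the family. Counts were compared with edgeR's quasi-likelihood test, and p-values were adjusted over all genes tested by the Benjamini-Hochberg method. At an adjusted p of 0.05, 1 of the 11 was called, Hist1h1c, higher in diabetic microglia, against 0.0681% of all genes (0.0426% higher and 0.0255% lower). The groups' CPM did not overlap for 1 of the 11, again Hist1h1c, against 8.44% of all genes (4.27% with the diabetic group above and 4.16% below). The estimate was above 0 for 9 of the 11 and below 0 for 2, against 50.3% above 0 of all genes, and their median log2 fold change was 0.20 against 0.0018. An unadjusted p below 0.05 was reached by 2 of the 11, Hist1h1c and H2afy2, against 18.9% of all genes. All of these counts and the median include Hist1h1c, whose difference chose the family, so they support nothing about the family. Of the estimates above 0, those of H2afx (0.094) and H2afy (0.012) turned sign in some other fits.

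Hist1h1c rose about 3-fold. Its normalised CPM was 24.0, 24.5, 17.7, 11.2 and 15.7 in controls 1, 3, 4, 5 and 6 and 57.7, 58.2, 70.9 and 52.9 in diabetic 1, 2, 4 and 5. Every diabetic library lay above every control, and the lowest diabetic value was over 2 times the highest control value. The raw counts were 105 to 283 in controls and 445 to 585 in diabetic libraries, so counting error was small beside the difference. The means were 18.6 ± 5.64 CPM (SD, n = 5) and 59.9 ± 7.68 (SD, n = 4), which is 1.68 on the log2 scale of edgeR's quasi-likelihood fit (SE 0.20, 95% interval 1.23 to 2.12, adjusted p = 0.0196). These values chose the family. The adjusted p passed 0.05 with all libraries but not without control 4 (0.0722), diabetic 1 (0.0855), diabetic 2 (0.0790) or diabetic 4 (0.128), nor without controls 4 and 6 together (0.0608), while the log2 fold change stayed between 1.57 and 1.70 in these fits. In sorted cells, a change in the mix of cells and a change in RNA per cell cannot be told apart.

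**Figure D1:**
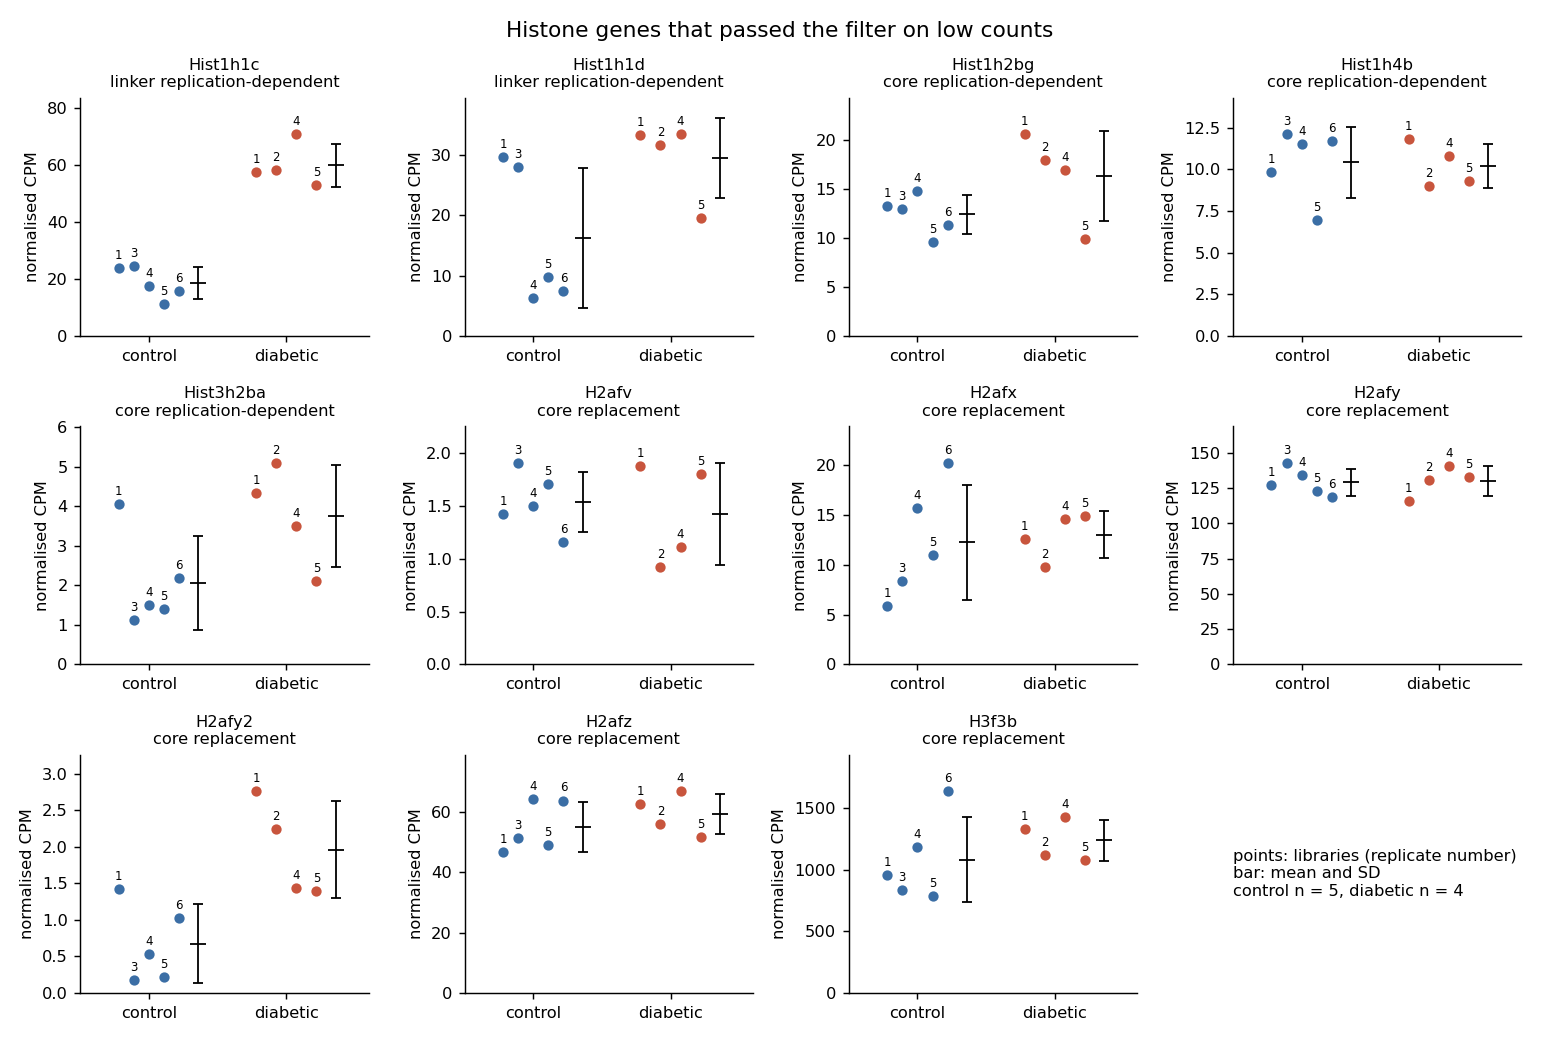
Normalised CPM (y axis, from 0) of the 11 tested histone genes in each library, with control libraries in blue and diabetic libraries in red, numbered by replicate, and the mean and SD as a bar. Hist1h1c is the gene whose groups do not overlap, with controls at 11.2 to 24.5 and diabetic libraries at 52.9 to 70.9.

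Hist1h1d encodes another somatic H1 variant. Its normalised CPM was 29.6, 28.0, 6.23, 9.84 and 7.47 in controls 1, 3, 4, 5 and 6 and 33.2, 31.6, 33.4 and 19.6 in diabetic 1, 2, 4 and 5. The controls fell apart, controls 1 and 3 lying near the diabetic libraries and controls 4, 5 and 6 well below them, and diabetic 5 lay between. The mean was 16.2 ± 11.6 in controls and 29.5 ± 6.62 in diabetic libraries, and the log2 fold change of 0.84 (SE 0.50, 95% interval -0.31 to 2.00) did not pass the test (adjusted p = 0.380). Without controls 4 and 6, it was 0.37 (adjusted p = 0.689 by edgeR). The highest control was 4.76 times the lowest. The SD of its log2 CPM across controls was 1.05, above that of 96.1% of the genes tested, whose median was 0.264, whereas Hist1h1c had 0.461, above 76.8%. Controls 4 and 6 are also the libraries with the highest isolation list, but control 5, at 10317 CPM of that list, was nearly as low in Hist1h1d. The part of isolation in this spread was not tested.

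Hist1h1c held 44.6%, 46.5%, 73.0%, 53.0% and 67.0% of all Hist1h1 counts in controls 1, 3, 4, 5 and 6. It held 63.2%, 64.6%, 67.6% and 72.6% in diabetic 1, 2, 4 and 5. The groups overlapped in this share, so the make-up of the linker counts did not separate them although their sum did. Hist1h1c and Hist1h1d are alike in sequence and share RefSeq synonyms, and how the counting divided reads between such genes is not given in the sources used here.

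The other linker genes were close to the limit of detection. Hist1h1b, the H1.5 gene, had 1, 2, 3, 0 and 2 counts in controls 1, 3, 4, 5 and 6 and 4, 2, 3 and 4 in diabetic 1, 2, 4 and 5. Hist1h1a, the H1.1 gene, had 1 count in control 5 and 1 in diabetic 1. Hist1h1t, a testis H1, had 1 count in control 1, and H1foo, the oocyte H1, had 2 in control 6. H1fnt, a linker histone of sperm development, had 0 counts in all libraries, which allows up to 0.0599 CPM over the controls and 0.0870 CPM over the diabetic libraries, counting error only. H1fx, the replacement linker H1.10, was the only one of them with more than 4 counts in any library. It had 6, 10, 1, 8 and 2 counts in controls and 21, 6, 14 and 16 in diabetic 1, 2, 4 and 5. Diabetic 2 lay within the control range and the other 3 above it, and the gene was too low for the filter, so it was not tested.

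The replication-dependent core histones were sparse apart from 3 genes, Hist1h2bg, Hist1h4b and Hist3h2ba, which held 92.1% to 97.7% of the counts of this class in every library. None of the 3 passed the test. Hist1h2bg, an H2B gene of the cluster, had a normalised CPM of 13.3, 13, 14.8, 9.63 and 11.3 in controls 1, 3, 4, 5 and 6 and 20.6, 18.0, 16.9 and 9.90 in diabetic 1, 2, 4 and 5. Diabetic 1, 2 and 4 lay above all controls and diabetic 5 lay second lowest of all 9. The log2 fold change was 0.39 (SE 0.21, 95% interval -0.07 to 0.85, adjusted p = 0.321 by edgeR).

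Hist3h2ba, an H2B gene on chromosome 10 outside the main cluster, had 4.06, 1.13, 1.50, 1.39 and 2.19 CPM in controls and 4.34, 5.10, 3.50 and 2.10 in diabetic libraries, in the same order. Control 1 stood with the diabetic libraries and diabetic 5 with the controls. Its log2 fold change was 0.87 (SE 0.42, 95% interval -0.03 to 1.77, adjusted p = 0.278 by edgeR). Hist1h4b, an H4 symbol with several copies, had 9.82, 12.1, 11.5, 6.95 and 11.7 CPM in controls and 11.8, 8.98, 10.8 and 9.30 in diabetic libraries. These ranges overlapped fully, and the log2 fold change was -0.03 (SE 0.19, 95% interval -0.45 to 0.40), whose sign turned without normalisation factors (0.096) and with upper-quartile factors (0.051).

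Of the other 25 replication-dependent core genes, 18 had counts, with at most 10 in any library, and 7 had none. The highest of them, Hist1h2bo, had 3, 0, 8, 4 and 2 counts in controls and 7, 10, 4 and 1 in diabetic libraries. The 7 at 0 were Hist1h2aa, Hist1h2ao, Hist1h2ba, Hist1h2bl, Hist1h3c, Hist1h3f and Hist1h4m, of which Hist1h2aa and Hist1h2ba are testis forms. No replication-dependent H3 gene reached the filter, so H3 was measured here through H3f3b alone. Since most of these genes make mRNA without a poly(A) tail, these counts describe the libraries rather than the cells.

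Of the 8 replacement core histones 6 were tested, and 0 of them passed an adjusted p of 0.05 in edgeR, DESeq2 or limma-voom, with 1, H2afy2, at an unadjusted p below 0.05 in edgeR. H3f3b, which encodes H3.3, the H3 that replaces the replication-dependent form in cells at rest, held 74.7% to 86.5% of all histone counts. Its CPM was 962, 840.2, 1184, 786 and 1639.7 in controls 1, 3, 4, 5 and 6 and 1329, 1121, 1428 and 1079 in diabetic 1, 2, 4 and 5. Control 6 was the highest library and control 4 lay within the diabetic range, and these are the controls with the highest isolation list. The log2 fold change was 0.20 (SE 0.21, 95% interval -0.26 to 0.65, adjusted p = 0.620 by edgeR). It was 0.39 without control 6 (unadjusted p = 0.0137, adjusted p = 0.201 by edgeR) and 0.51 without controls 4 and 6 (unadjusted p = 0.000964, adjusted p = 0.137 by edgeR), and 0.12, 0.10 and 0.12 without control 3, control 5 or diabetic 4.

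H2afz, the gene of H2A.Z, which marks promoters and regulatory elements, had 46.7, 51.4, 64.4, 49.2 and 63.9 CPM in controls and 62.6, 56.1, 67.0 and 51.9 in diabetic libraries. The log2 fold change was 0.11 (SE 0.13, 95% interval -0.17 to 0.39), and 0.26 without controls 4 and 6. H2afy, the gene of macroH2A1, a large H2A variant linked to silent chromatin, had 127, 143, 134, 123 and 119 CPM in controls and 116, 130.4, 141 and 133 in diabetic libraries. It was the steadiest histone gene, with an SD of log2 CPM of 0.105 across controls, and its log2 fold change of 0.01 (SE 0.09, 95% interval -0.19 to 0.21) turned sign when controls 4 and 6 were both left out (-0.02).

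The remaining replacement genes were less abundant. H2afy2, the gene of macroH2A2, had 0.173 to 1.42 CPM in controls and 1.40 to 2.76 in diabetic libraries, or 2 to 15 and 9 to 28 counts. Only control 1 reached the diabetic range, and the log2 fold change of 1.55 (SE 0.56, 95% interval 0.33 to 2.76) had an unadjusted p of 0.0168 and an adjusted p of 0.175 by edgeR, so it did not pass. H2afx, the gene of H2A.X, the variant phosphorylated at DNA breaks, had 5.85, 8.32, 15.7, 11.0 and 20.2 CPM in controls 1, 3, 4, 5 and 6 and 9.80 to 14.9 in diabetic libraries. Controls 4 and 6 were again the highest. Its log2 fold change was 0.09 (SE 0.32), and 0.62 without controls 4 and 6 (unadjusted p = 0.0230, adjusted p = 0.259 by edgeR). That of H2afv, a second H2A.Z gene at 0.918 to 1.91 CPM, was -0.10 (SE 0.36) and turned to 0.0031 without normalisation factors. H2afb3 and H2afj had 0 counts in all libraries.

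**Figure D2:**
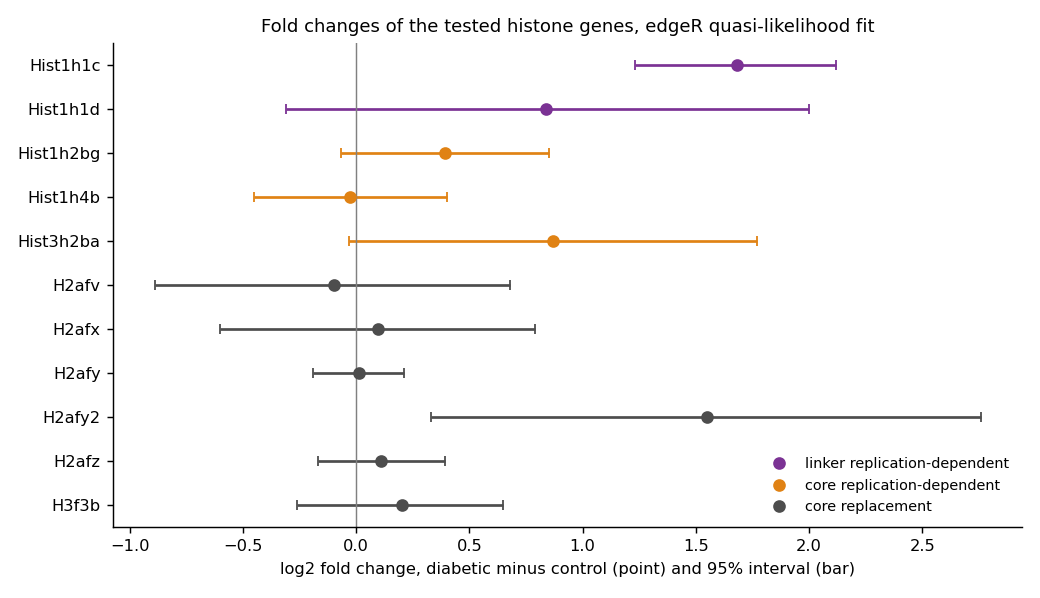
Log2 fold change, diabetic minus control (x axis), of the 11 tested histone genes in the edgeR quasi-likelihood fit, with points for estimates, bars for 95% intervals and colours for class. The interval of Hist1h1c runs from 1.23 to 2.12 and that of H2afy2 from 0.33 to 2.76, and the other 9 intervals include 0.

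Sums over the classes set linker against core and replication-dependent against replacement histones. They are descriptions, without a p-value, and they follow transcript length as well as abundance. Replication-dependent linker genes summed to 53.8, 52.7, 24.3, 21.2 and 23.5 CPM in controls 1, 3, 4, 5 and 6 and to 91.4, 90.0, 105 and 72.9 in diabetic 1, 2, 4 and 5. The groups did not overlap, and the ratio of the means was 1.40 on the log2 scale. Without Hist1h1c the log2 ratio was 0.86, and what remained was nearly all Hist1h1d, whose groups overlapped.

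Replication-dependent core genes summed to 19.1 to 29.7 CPM in controls (mean 26.1 ± 4.05) and 22.5 to 38.8 in diabetic libraries (mean 32.2 ± 6.94), a log2 ratio of 0.30 with overlapping groups. Replacement core genes summed to 971 to 1845 CPM (mean 1281 ± 354) and 1282 to 1653 (mean 1445 ± 175), a log2 ratio of 0.17, also with overlap. This ratio was 0.46 without controls 4 and 6, 0.34 without control 6, 0.11 without control 3, 0.089 without control 5 and 0.10 without diabetic 4. With H3f3b left out of this class the sums were 182 to 216 CPM in controls and 196 to 225 in diabetic libraries. Replacement linker genes, nearly all H1fx, summed to 0.107 to 0.867 CPM and 0.612 to 2.23 CPM, a log2 ratio of 1.50 that rests on few counts.

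The ratio of linker to core sums among replication-dependent genes was 1.92, 1.96, 0.819, 1.11 and 0.883 in controls 1, 3, 4, 5 and 6. It was 2.36, 2.59, 3.21 and 3.24 in diabetic 1, 2, 4 and 5, above all controls. With Hist1h1c taken out of the linker sum the ratio was 0.221 to 1.06 in controls and 0.868 to 1.04 in diabetic libraries, and the groups overlapped. The separation of linker from core histones was carried by Hist1h1c, the gene that chose the family.

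**Figure D3:**
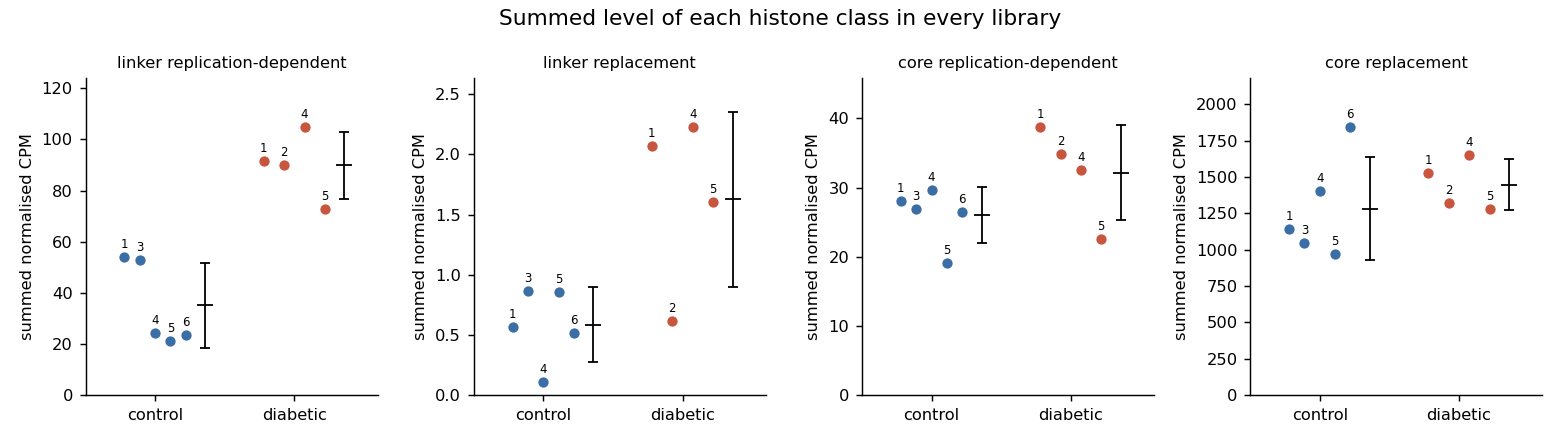
Summed normalised CPM (y axis, from 0, a scale for each class) of the 4 histone classes in each library, with controls in blue, diabetic libraries in red, replicate numbers beside the points and the mean and SD as a bar. The groups are apart in the replication-dependent linker class, at 21.2 to 53.8 against 72.9 to 105 CPM, and overlap in the other 3 classes.

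The transcript assemblies made by the authors give the extent of the linker transcripts. They use the same reads as the counts and are no second measurement. In each of the 9 libraries 1 single-exon transcript without a reference identifier covered Hist1h1c. These were 1440 to 2239 bases long, began 38 to 44 bases before the reference 5′ end and ran 762 to 1556 bases past the reference 3′ end. The lengths were 1440 to 1998 bases in controls and 1489 to 2239 in diabetic libraries, so the groups overlapped. They were listed on the strand opposite to the gene. A transcript of 1 exon has no splice junction to set its strand, and whether the libraries keep strand is not given in the sources used here. The RefSeq gene H1f2 spans 1492 bases on GRCr8, more than the 639 of the Rnor6 reference.

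TPM, a length-corrected level of a transcript within its library, summed over the assembled and the reference transcript of Hist1h1c, were 25.5, 25.1, 19.0, 12.6 and 14.2 in controls 1, 3, 4, 5 and 6 and 57.1, 50.2, 84.9 and 47.3 in diabetic 1, 2, 4 and 5. Here too every diabetic library was above every control, with means of 19.3 ± 5.98 and 59.9 ± 17.2. The reference transcript itself was listed at 0 TPM except in diabetic 2 (2.59) and diabetic 4 (9.09).

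Over Hist1h1d the assembled transcripts were shorter, at 406 to 986 bases, and ended between 312 bases before and 268 bases after the reference 3′ end. The TPM of these transcripts was 29.0, 21.7, 5.52, 8.75 and 7.22 in controls and 21.8, 19.1, 15.3 and 14.6 in diabetic libraries, in the order above. The groups overlapped, and diabetic 5 was the lowest of its group, as it was by CPM. The reference transcript was listed at 0 TPM except in control 5 (6.96) and diabetic 5 (14.4), and with it added their sums were 15.7 and 29.0. By these sums diabetic 5 was the highest of its group, against 21.8, 19.1 and 15.3 in diabetic 1, 2 and 4. For Hist1h2bg the TPM summed over both kinds of transcript was 16.6 ± 3.96 in controls and 24.5 ± 10.7 in diabetic libraries, and for Hist3h2ba it was 2.12 ± 2.17 and 5.14 ± 3.18. In every library the Hist1h2bg sum joined 2 single-exon assembled transcripts at opposite ends of its 9387-base annotation.

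**Figure D4:**
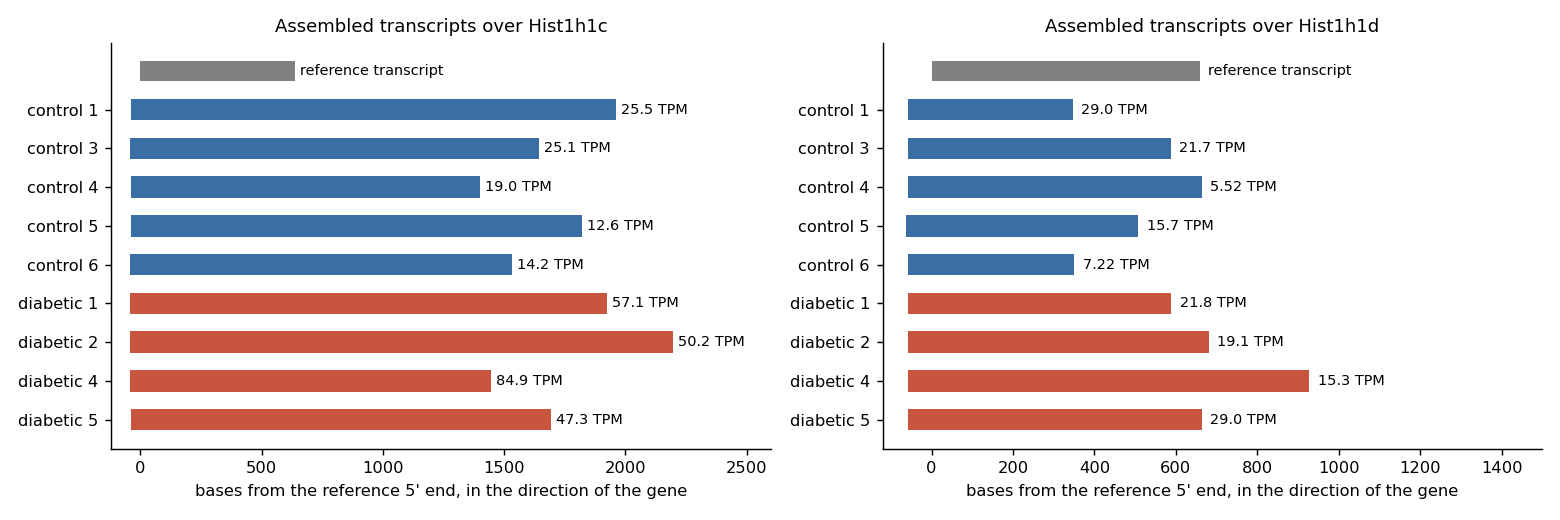
Extent of the authors' assembled transcripts over Hist1h1c (left) and Hist1h1d (right) in each library, in bases from the reference 5′ end along the gene (x axis), with the reference transcript in grey, controls in blue, diabetic libraries in red and beside each bar the TPM summed over the assembled and the reference transcript. All bars over Hist1h1c run 762 to 1556 bases past the reference 3′ end, in both groups alike.

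Histone mRNA of the stem-loop kind depends on the cell cycle and on its own processing factors, and newly made histones are carried by chaperones. Of these 3 lists 0 genes passed an adjusted p of 0.05 in edgeR's quasi-likelihood test and 0 in limma-voom, while DESeq2 called 2, 2 and 4 genes of them, all lower in diabetic microglia, among its 5.16% of all genes. Of 23 tested genes for histone transcription and mRNA processing, 7 had an estimate above 0 and 16 below, with a median log2 fold change of -0.17, and at an unadjusted p below 0.05 there were 0 above and 6 below, where all genes gave 8.94% above and 10.0% below. Cpsf3, the endonuclease that cuts histone and other pre-mRNAs, had 118 ± 6.29 CPM in controls and 90.1 ± 6.44 in diabetic libraries (log2 fold change -0.39, SE 0.09, adjusted p = 0.0895), and every diabetic library lay below every control. Eri1, an exonuclease that trims the stem-loop end, had 92.4 ± 6.26 and 71.4 ± 10.8 CPM (log2 fold change -0.37, SE 0.11, adjusted p = 0.124). Slbp, the stem-loop binding protein, named for its role after its values were seen, had 99.3 ± 22.4 and 78.0 ± 5.92 CPM (adjusted p = 0.241).

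Of 30 tested genes of S phase and of G2 and mitosis, 9 had an estimate above 0 and 21 below, with a median of -0.19, and 0 and 4 of them had an unadjusted p below 0.05. All genes gave 8.94% above and 10.0% below at that p. Rrm1, a subunit of the enzyme that makes deoxynucleotides, had 73.9 ± 6.76 CPM in controls and 56.7 ± 7.19 in diabetic libraries (log2 fold change -0.38, SE 0.11, adjusted p = 0.124). Mcm6, part of the replicative helicase, had 75.4 ± 6.20 and 59.2 ± 6.12 CPM (log2 fold change -0.35, SE 0.10, adjusted p = 0.125). For both genes every diabetic library was below every control. The list summed to 909 to 1042 CPM in controls and 754 to 833 in diabetic libraries. Hist1h1c was higher in the latter, and any link between this sum and Hist1h1c was not tested. Mki67, a marker of dividing cells also picked after its values were seen, had 12.7 ± 3.53 and 10.7 ± 2.69 CPM (adjusted p = 0.581).

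Of 31 tested chaperone and exchange genes, 10 had an estimate above 0 and 21 below, with a median of -0.19, and 2 and 10 of them had an unadjusted p below 0.05. The shares of all genes were again 8.94% above and 10.0% below. Nap1l1, a chaperone of H2A and H2B, had 79.7 ± 5.58 CPM in controls and 62.5 ± 4.63 in diabetic libraries (log2 fold change -0.35, SE 0.10, adjusted p = 0.110). Kpnb1, importin beta, which carries H1 and other cargo into the nucleus, had 108 ± 13.4 and 80.4 ± 11.0 CPM (log2 fold change -0.43, SE 0.12, adjusted p = 0.119). Both were among the genes DESeq2 called, as were Cpsf3, Eri1, Rrm1 and Mcm6.

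Markers of other cells were set beside Hist1h1c library by library. In edgeR, 8.94% of all genes tested were higher at an unadjusted p below 0.05. The neutrophil list of 12 genes had 4 tested, all with an estimate above 0 and an unadjusted p below 0.05, and Ltf, Mpo and Lcn2 at 0 in all libraries. Its sum was 12.5, 8.50, 1.29, 0.856 and 2.19 CPM in controls 1, 3, 4, 5 and 6 and 57.6, 20.6, 81.5 and 23.4 in diabetic 1, 2, 4 and 5. The groups did not overlap in this sum either, and diabetic 4 was highest in both. All 10 tested genes of the blood and border myeloid list had an estimate above 0, 6 of them at an unadjusted p below 0.05, with a median log2 fold change of 0.77, and the list summed to 1981 to 2660.1 CPM in controls and 2201 to 3864 in diabetic libraries, with Ccr2 at 0. Their part in the difference of Hist1h1c was not tested.

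The sums of the retinal lists overlapped between the groups. Photoreceptor genes summed to 252 to 1340.2 CPM in controls and 400.1 to 1923 in diabetic libraries, with 14 of 15 tested genes above 0. Inner retinal neuron genes summed to 90.5 to 195 and 127 to 380.2 CPM (11 of 15 above 0, Pou4f1 and Pou4f2 at 0 throughout). Muller glia genes summed to 12479 to 17469.9 and 12172 to 14005 CPM (3 of 11 above 0), and vascular genes to 484 to 674 and 402 to 589.9 CPM (1 of 12 above 0, median log2 fold change -1.50). At an unadjusted p below 0.05 by edgeR, 6 inner retinal neuron genes were higher and 2 lower. At the same cut, 3 Muller glia and 3 vascular genes were lower and 0 higher, and 0 photoreceptor genes passed. The Muller glia list includes Apoe and Vim, and its sum does not show which cells the RNA came from. Lymphocyte genes summed to 0.694 to 2.06 and 0.500 to 3.34 CPM, and none was tested. Of the microglia identity genes 7 of 16 tested were above 0. In edgeR's quasi-likelihood test and in limma-voom 0 genes of the marker lists passed an adjusted p of 0.05, and among the lists of other cell types DESeq2 called 4 blood and border, 2 neutrophil (S100a8 and S100a9) and 5 inner retinal genes higher, and 2 Muller glia genes and 1 vascular gene lower.

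Beside the isolation list the histone genes took different courses. Among the controls, Hist1h1d was lowest in controls 4 and 6, with control 5 next, and H2afx and H3f3b were highest there. Hist1h1c, at 17.7 and 15.7 CPM in controls 4 and 6, lay within the range of the other controls. The diabetic libraries, with sums of this list between those of the other controls and controls 4 and 6, were above both in Hist1h1c. The part of isolation in the levels of these genes was not tested. The isolation list itself had 12 of 27 tested genes above 0 and a median log2 fold change of -0.32.

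**Figure D5:**
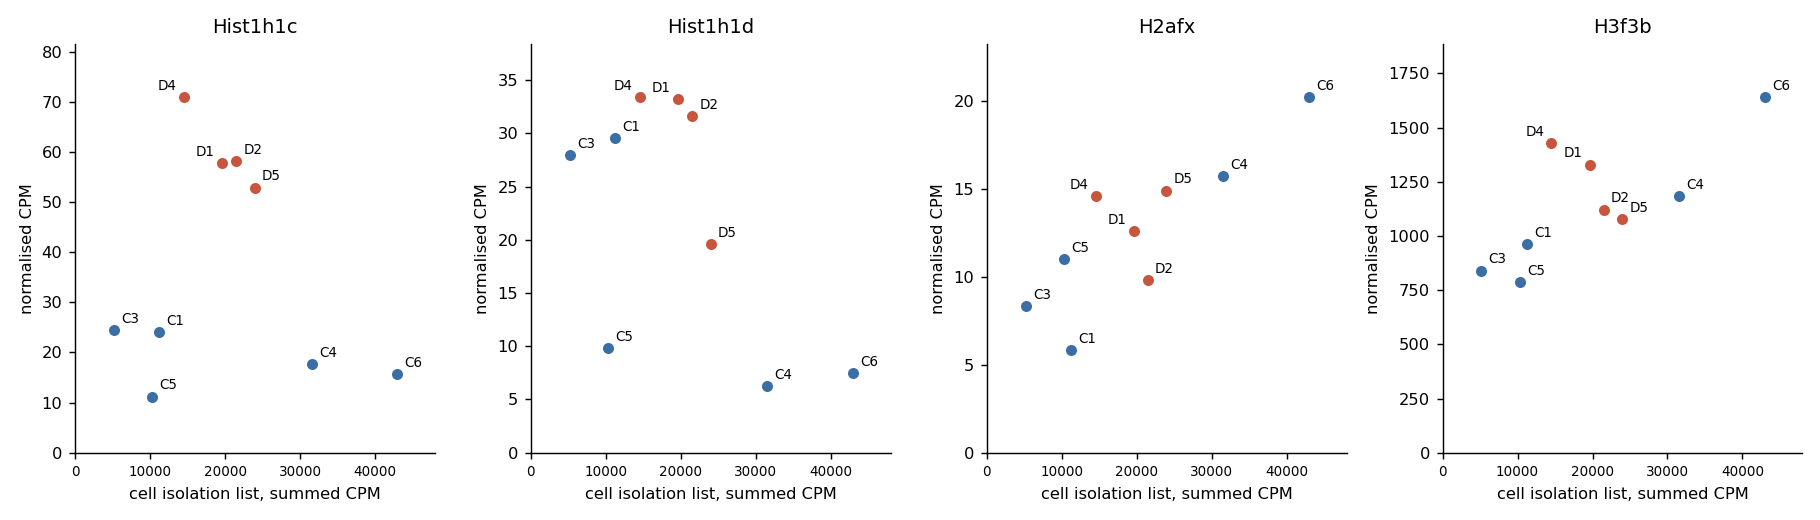
Normalised CPM of Hist1h1c, Hist1h1d, H2afx and H3f3b (y axes, from 0) against the summed CPM of the cell isolation list (x axis), with a point per library, controls (C) in blue and diabetic libraries (D) in red. The diabetic libraries, at 14522 to 23957 on the x axis, lie above all controls in Hist1h1c, and control 6 is the highest library in H2afx and H3f3b.

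The genes whose pattern was most like that of Hist1h1c were sought among all tested genes by Pearson's r of log2 CPM over the 9 libraries, as a description. The first 5 outside the histone genes were Mrps24 (r = 0.978), Tssc4 (0.978), S100a9 (0.966), Fxyd2 (0.965) and Sh3gl1 (0.960). S100a9, a calprotectin subunit abundant in neutrophils and monocytes and a member of the neutrophil list, had 2.32 CPM in controls and 29.9 in diabetic libraries. With the group means subtracted, the first 5 were others, namely Phb2 (0.974), Ampd1 (0.972), l7Rn6 (0.941), Fam173b (0.938) and Ufc1 (0.934). Among the histone genes Hist1h1d came closest on the first measure (0.770) and on the second (0.720). The values share libraries, depth and scaling, and with 9 points and 11748 genes high coefficients arise readily.

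The authors' deposited table of group differences lists 12 histone genes, the 11 above and H1fx, all with a log2 fold change above 0. Of these, 1 has an adjusted p below 0.05 in the authors' deposited table, against 2.10% of its 12069 genes. That gene is Hist1h1c, at 1.78 (log2) and adjusted p = 1.15e-10 in the authors' deposited table. H1fx has 1.64 (adjusted p = 0.140), H2afy2 1.67 (adjusted p = 0.111) and Hist1h1d 0.93 (adjusted p = 0.250) in the authors' deposited table. Over all genes tested here, the median log2 difference was 0.116 without normalisation factors and 0.0018 with TMM factors. Hist1h4b and H2afv had 0.0957 and 0.0046 in the authors' deposited table, and -0.03 and -0.10 in the fit here with TMM factors. The share of all genes above 0 in the authors' deposited table was not counted.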

How the data were processed

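Per the submitters' processing notes, reads were handled with bcl2fastq 2.18.0.12, TopHat2 2.0.14, StringTie 1.2.4 and edgeR on Rnor_6.0. Which program counted reads, and whether by strand, is not given in the sources used here. The authors deposited raw counts per gene symbol, a table of log2 fold changes and p-values, and StringTie assemblies with TPM values per transcript, normalised within each library by the authors. No row of the counts lacked a gene name.

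Groups come from the titles and treatment labels. Genes were kept by filterByExpr (minimum count 10, minimum total 15), leaving 11748 of 17822 with any count. Counts were tested with edgeR 4.0.16 in R 4.3.3 (quasi-likelihood F test, robust, TMM factors, group only), with Benjamini-Hochberg adjustment over all genes and a threshold of 0.05. SE is the size of the log2 fold change over the root of F. Normalised CPM is counts over total counts times the TMM factor, and log2 CPM adds a prior count of 2. The common biological coefficient of variation was 0.251. On simulated data over these 11748 genes with 200 changed, the test recovered 99% of 4-fold and 65.3% of 2-fold changes. Each simulated gene had the common coefficient of variation and no shared library effect, so these rates do not carry over to genes of wider spread. Over 36 pairs of libraries a chi-square statistic was at least 10.5 per degree of freedom, so none was counted as a repeat. A count of 0 allows 3 counts.

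The histone genes, gene lists and alternatives were chosen with earlier results of these data known. Values per library are given for linker genes with any count, for genes past the threshold or without overlap, and for the 3 of highest CPM in a class. From each of the 3 histone-related lists the 2 genes of smallest p-value are named. Promoters are from RefSeq (GRCr8). Alternatives were other scalings, no filter, DESeq2 1.42.0, limma 3.58.1 (voom), a replicate block and left-out libraries.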

Additional observations from a re-analysis of the deposited data

Results flagged for a closer look

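In Hist1h1d, diabetic 5 lay far from its group, at 19.6 CPM where the other 3 diabetic libraries were at 31.6 to 33.4, a gap of 0.87 of the group's whole range by Dixon's criterion. The assembled transcript over Hist1h1d in the same library had 14.6 TPM, also the lowest of its group. With the reference transcript added it had 29.0 TPM, the highest of its group, so its place by TPM depends on the transcripts summed. The diabetic values of Hist1h1d were 1 of 30 groups of values examined, and chance marks about 1 in 20.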

How the results depend on the processing

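Hist1h1c kept its direction in all 16 alternatives, with log2 fold changes of 1.54 to 1.82 and adjusted p of 2.1e-10 to 0.32, and passed the threshold in 10. The number of histone genes past the threshold was 1, and it was 0 with a replicate block and without controls 4 and 6 together, fits that called 0 genes of any kind. Leaving out 1 library gave 0 to 1. The block gave Hist1h1c 1.82 (adjusted p = 0.320). The deviations of same-numbered libraries from their group means correlated at 0.201, -0.114 and 0.0156 for numbers 1, 4 and 5. These values were not set beside those of differently numbered libraries, so they cannot tell whether the numbers mark pairs or batches. DESeq2 called 598 of 11596 genes (5.16%), against 8 in the reported fit, and Hist1h1c alone of the histone genes, and the fit without filter called 42 of 17822. Genes near 0 turned sign. H2afv reached 0.0031 without factors and 0.046 with the block, and -0.26 to 0.064 with 1 library left out. H2afx ran from -0.087 to 0.35 and H2afy from -0.03 to 0.064 with 1 library left out, and without controls 4 and 6 H2afy was -0.017, H2afx 0.62, H3f3b 0.51, H2afz 0.26 and Hist1h1d 0.37. Hist1h4b was 0.096 without factors, 0.051 with upper-quartile factors, 0.20 with the block and 0.073 without controls 4 and 6, and -0.14 to 0.035 with 1 library left out. The cause was not tested. The class sums kept their direction, and the replacement core ratio ran from 0.052 (without H3f3b) to 0.46 (without controls 4 and 6). The replacement linker class without H1fx gave no value, since its diabetic sum was 0. Depth limits the 23 untested genes with counts, and stem-loop mRNA is poorly captured.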

Other observations

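Of the 11 tested histone genes, H2afy2 and Hist1h1c alone reached an unadjusted p below 0.05 in edgeR. This was reached by 18.9% of all genes, so 2 of 11 does not stand out. H2afy2 held its direction in all 16 alternatives, with log2 fold changes of 1.29 to 2.06. Its adjusted p was 0.0875 to 0.506 by the tools run. H2afy2 is the lower of the macroH2A genes, with at most 28 counts in a library.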
